A study of Mus musculus with 20 samples.

Results

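RNA splicing factors were followed here as the probe sets whose platform symbol begins with Sf3, Srsf, Sfrs, Hnrnp, Hnrp, Snrp, Prpf, Lsm with a digit, or U2af. The rule used gene names alone and no measured value, but it was chosen with earlier results of these data known. It found 131 probe sets of 64 genes among the 10748 probe sets of the table. Another 14 probe sets that name such a gene beside a further symbol were not counted. A filter on dim probe sets, set over all arrays together, kept 108 of the 131 probe sets, which stand for 56 genes. The 23 probe sets below it were 3 each of Srsf3 and Prpf4b, 2 each of Snrpa1 and Prpf39, and 1 each of Srsf10, Srsf11, Sf3a1, Sf3a3, Sf3b1, Lsm1, Lsm2, Prpf3, Prpf31, Prpf38a, Prpf38b, Hnrnpa1 and Hnrnpdl, and they were not tested.

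The series holds 20 Affymetrix arrays in 5 groups of 4, each from a muscle of a female C57BL/6 mouse aged 14 weeks. Gastrocnemius, a calf muscle, came from mice labelled transgenic humanSODG93A at a symptomatic stage (SOD1 gastrocnemius), from mice whose sciatic nerve had been crushed for 30 s at 12 weeks of age, 2 weeks earlier (crush gastrocnemius), and from non-transgenic mice (NTg gastrocnemius). Triceps, a muscle of the fore limb, came from mice with the same transgene (SOD1 triceps) and from non-transgenic mice (NTg triceps). Mice carrying a mutant human SOD1 transgene are a model of amyotrophic lateral sclerosis, in which motor neurons die and muscle loses its nerve supply. The crush group was added by the submitters as a control for denervation. For the crushed mice no genotype was labelled, no sham operation was analysed here, and the labels name no promoter for the transgene. The labels call the arrays biological replicates, but none ties an array to a mouse.

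Splicing removes introns from the precursor of a messenger RNA and joins its exons. The work is done by the spliceosome, which assembles from small nuclear RNA particles: U1 marks the start of an intron, the U2AF heterodimer and then the U2 particle with its SF3 subunits mark the branch site and the end, and the tri-snRNP with the Prpf proteins brings in the catalytic RNAs. Sm proteins form the ring at the core of most of these particles, and most Lsm proteins form a like ring on U6 or on RNA that is being degraded. SR proteins (Srsf) bind exons and mostly favour their inclusion, and hnRNPs coat the precursor and often act against it. In skeletal muscle, alternative exons of contractile, calcium-handling and cytoskeletal genes depend on these factors. Some genes under the name rule serve other tasks: Lsm10 belongs to the U7 particle that processes histone messages, Lsm14b to cytoplasmic RNA granules, Lsm1 to message decay, and Prpf4b is a protein kinase.

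The promoters of 4 of the 6 genes with a probe set that rose in SOD1 gastrocnemius are shown, as examples of an SF3 gene, both SR genes and the hnRNP gene with 2 such probe sets. Each is the 250 bases before the gene's start in RefSeq's annotation of GRCm38.p6, written 5′ to 3′ in the direction of the gene, with GC boxes (GGGCGG) and CCAAT boxes (CCAAT) on either strand in capitals.
Srsf1 promoter, chr11:88047123-88047372, plus strand: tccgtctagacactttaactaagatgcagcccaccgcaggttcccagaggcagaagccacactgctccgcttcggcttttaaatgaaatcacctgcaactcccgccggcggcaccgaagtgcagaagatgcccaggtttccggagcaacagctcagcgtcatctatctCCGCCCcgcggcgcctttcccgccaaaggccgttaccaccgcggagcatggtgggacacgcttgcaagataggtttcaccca
Srsf6 promoter, chr2:162931258-162931507, plus strand: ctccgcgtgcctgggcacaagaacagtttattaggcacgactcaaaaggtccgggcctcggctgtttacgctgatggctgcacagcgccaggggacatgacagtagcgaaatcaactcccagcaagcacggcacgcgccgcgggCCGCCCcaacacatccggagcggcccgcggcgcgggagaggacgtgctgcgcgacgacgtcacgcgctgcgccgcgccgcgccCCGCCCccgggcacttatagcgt
Hnrnpk promoter, chr13:58402118-58402367, minus strand: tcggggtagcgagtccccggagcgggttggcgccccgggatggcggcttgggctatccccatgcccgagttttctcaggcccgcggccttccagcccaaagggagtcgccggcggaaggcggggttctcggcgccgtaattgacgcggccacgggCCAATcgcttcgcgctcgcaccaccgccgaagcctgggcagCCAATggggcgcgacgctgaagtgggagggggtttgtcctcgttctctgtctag
Sf3b1 promoter, chr1:55027479-55027728, minus strand: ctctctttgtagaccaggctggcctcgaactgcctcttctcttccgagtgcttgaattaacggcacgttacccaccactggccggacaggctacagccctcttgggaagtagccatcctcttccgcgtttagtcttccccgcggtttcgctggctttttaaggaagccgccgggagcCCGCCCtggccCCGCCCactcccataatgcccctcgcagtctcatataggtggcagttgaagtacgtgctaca
A RefSeq promoter was matched for 55 of the 64 genes and not for the other 9. In these 250 bases, searched on both strands, a GC box stood in 65.5% of the 55 promoters, against 32.9% of all 27025 mouse promoters of the table. A CCAAT box stood in 47.3% of them, against 34.5% of all. The ETS core CCGGAAG stood in 29.1%, against 7.05% of all, and the NRF1 core TGCGCA in 29.1%, against 6.66% of all. The TATA box TATAAA was found in 7.27%, against 13% of all, and CAGCTG, the E-box that myogenic factors bind, in 10.9%, against 12.8% of all. The median GC content was 60.4% in the 55 promoters and 52% in all of them. GC boxes, ETS cores and NRF1 cores are rich in C and G, so these shares and the GC content are not separate measures. A match is a run of letters and was not tested for binding.

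Values are the deposited log2 signals, changes are differences of group means on that scale, and a change of 1 is a doubling of the signal. A change was called where limma's moderated test, fitted to all 20 arrays and adjusted by Benjamini-Hochberg over 7523 probe sets, gave an adjusted p under 0.05. The number of arrays, 4 a group, limits the precision. Array medians lay between 6.61 and 6.76. The summed signal of 13 muscle fibre genes was between 19632 and 81837 in every array, and the lowest log2 signal of any of them was 1.40, in NTg triceps. Of the 20 arrays, 4 were singled out because they stood apart from their group or label. Crush replicate 4 had r of 0.902 to 0.909 with the other crush arrays, which reached 0.976 among themselves, and its signal of Chrna1, an acetylcholine receptor subunit that rises in denervated fibres, was 11.34, against 6.97 to 7.40 in the other crush arrays. NTg triceps replicate 1 had r of 0.961 to 0.974 with the NTg gastrocnemius arrays and 0.945 to 0.963 with the other NTg triceps arrays. SOD1 triceps replicate 4 had r of 0.918 to 0.963 with the SOD1 gastrocnemius arrays and 0.921 to 0.936 with the other SOD1 triceps arrays, and its Chrna1 signal was 11.03, against 7.59 to 8.86 in those. NTg triceps replicate 4, titled triceps, carries a description that names gastrocnemius, and its r was 0.935 to 0.954 with the other NTg triceps arrays and 0.898 to 0.928 with NTg gastrocnemius.

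In SOD1 gastrocnemius, 7 of the 108 probe sets rose and 0 fell against NTg gastrocnemius. They stand for Sf3b1, Srsf1, Srsf6, Hnrnpu, Hnrnpdl and Hnrnpk, the last with 2 probe sets, and the rises lay between 1.35-fold and 1.64-fold. In whole muscle, more cells of a type and more RNA per cell cannot be told apart, and the same holds for falls. The 7 are 6.48% of the splicing factor probe sets, below the 12.0% called among all 7523 in this comparison, of which 5.97% were called higher and 6.02% lower. An unadjusted p under 0.05 was found for 22 (20.4%), against 29.5% of all. The groups did not overlap for 15 of the 108 (13.9%), all 15 with SOD1 above NTg, against 26.0% of all probe sets and 12.7% with SOD1 above. Change values of 72 of the 108 (66.7%) were above 0, against 49.8% of all probe sets, and their median was 0.08, against 0.00. The splicing factors had a lower share of calls than the whole table and a higher share of changes above 0. Of 97 other splicing genes, described below, 61.9% also had changes above 0.

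Sf3b1 encodes the SF3b subunit that holds the branch site in the U2 particle. Its probe set 1418562_at had signals of 8.01, 8.18, 8.37 and 8.42 in SOD1 gastrocnemius, against 7.27, 7.74, 7.49 and 7.65 in NTg gastrocnemius. Every SOD1 array was above every NTg array. The change was 0.71 (SE 0.22), 1.64-fold with a 95% interval of 1.19 to 2.24, at an adjusted p of 0.0395. The second tested probe set of Sf3b1, 1449138_at, also had no overlap, with a change of 0.29 and an adjusted p of 0.0971.

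Among the SR proteins, 2 of 20 probe sets rose and 0 fell (10.0%), against 12.0% of all probe sets called. Their median change was 0.07. Srsf1, the best-known SR protein, which helps U1 and U2AF settle on an exon, had 8.24, 8.53, 8.16 and 8.58 at probe set 1428099_a_at in SOD1 gastrocnemius, against 7.65, 7.62, 7.82 and 8.01 in NTg gastrocnemius. The groups did not overlap, and the change was 0.61 (SE 0.17; adjusted p = 0.0258), or 1.52-fold. Srsf6, another SR protein that binds exonic enhancers, had 7.81, 8.08, 8.20 and 8.33 at 1448454_at in SOD1 gastrocnemius, against 7.75, 7.65, 7.51 and 7.58 in NTg gastrocnemius. The SOD1 arrays were all above the NTg arrays, the lowest of them by a small step, with a change of 0.48 (SE 0.15; adjusted p = 0.0423). Srsf5, an SR protein whose single probe set 1423130_a_at was tested, averaged 9.62 ± 0.33 in SOD1 gastrocnemius and 9.93 ± 0.20 in NTg gastrocnemius (SD, n = 4 each), a change of -0.31 that did not pass.

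The hnRNPs held 4 of the 7 calls, among 43 probe sets of 17 genes, and their median change was 0.12. These 4 are 9.30% of the hnRNP probe sets, against 12.0% of all probe sets called, 5.97% higher and 6.02% lower. Hnrnpk, which binds C-rich RNA through KH domains, had 9.05, 8.83, 9.02 and 9.26 at probe set 1448176_a_at in SOD1 gastrocnemius, against 8.37, 8.68, 8.68 and 8.28 in NTg gastrocnemius. The groups did not overlap, and the change was 0.54 (SE 0.14; adjusted p = 0.0224). A second probe set of Hnrnpk, 1423684_at, had 7.85, 7.97, 8.16 and 8.32 in SOD1 gastrocnemius, against 7.60, 7.93, 7.42 and 7.62 in NTg gastrocnemius. There NTg replicate 2 reached into the SOD1 range, and the change was 0.43 (SE 0.13; adjusted p = 0.0374).

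Hnrnpdl, a relative of Hnrnpd whose human counterpart is mutated in a limb-girdle muscular dystrophy, had 9.80, 10.09, 10.02 and 10.03 at 1424251_a_at in SOD1 gastrocnemius, against 9.43, 9.66, 9.12 and 9.48 in NTg gastrocnemius. The SOD1 arrays were all higher, by 0.56 on average (SE 0.16; adjusted p = 0.0290). Hnrnpu, an RNA-binding protein of the nuclear scaffold, had 8.13, 8.79, 8.87 and 9.02 at 1423050_s_at in SOD1 gastrocnemius, against 8.15, 8.01, 8.20 and 8.03 in NTg gastrocnemius. SOD1 replicate 1 lay among the NTg arrays and the other SOD1 arrays above them, with a change of 0.60 (SE 0.18; adjusted p = 0.0382). The 2 probe sets of Hnrnpr, an hnRNP chosen for mention after its values were seen, had changes of 0.61 (1437526_x_at, adjusted p = 0.0998) and 0.57 (1427129_a_at, adjusted p = 0.0599), both without overlap and neither passing.

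**Figure D1:**
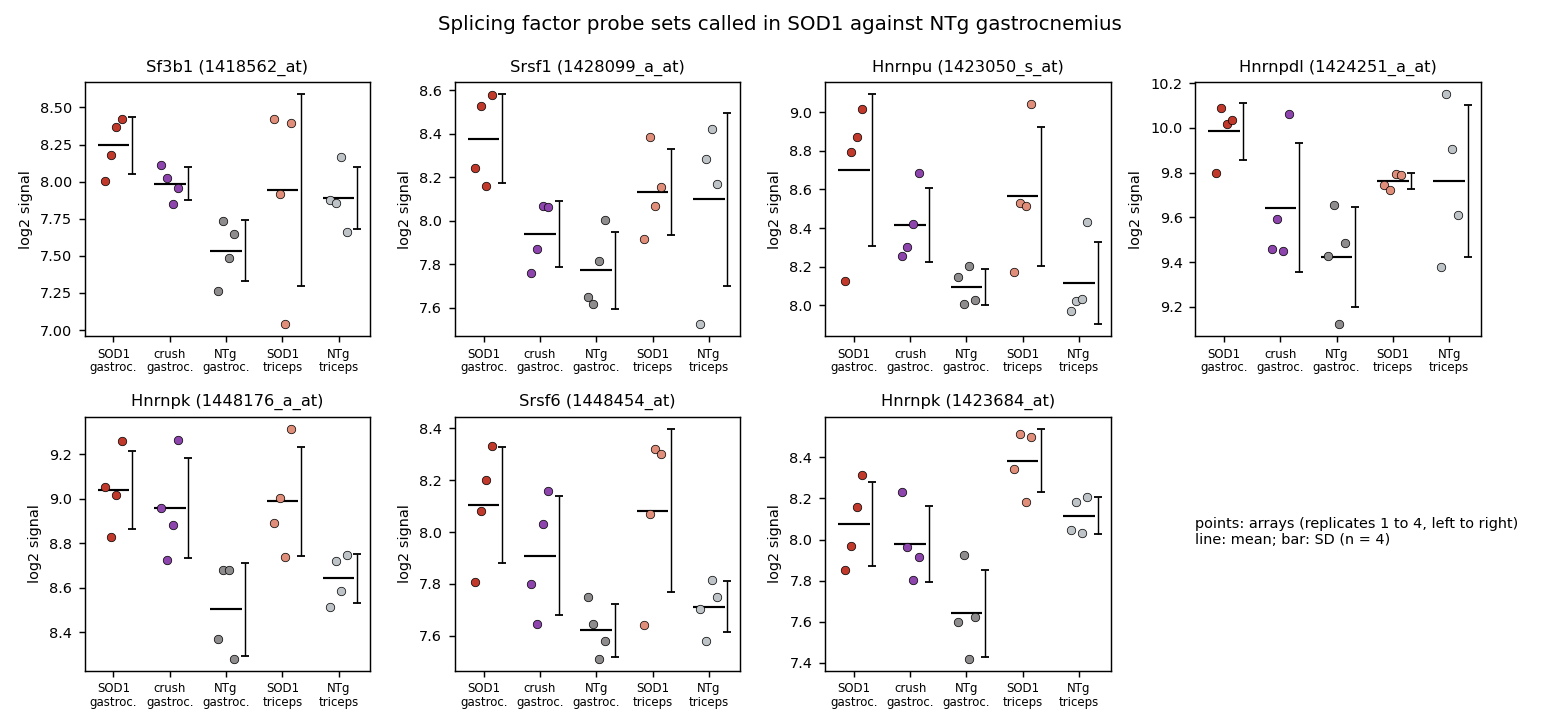
Log2 signal (y axis) of the 7 probe sets called in SOD1 against NTg gastrocnemius, in each of the 20 arrays by group (x axis), with the group mean as a line and the SD as a bar (n = 4). The SOD1 gastrocnemius arrays lie above the NTg gastrocnemius arrays in 5 of the 7 panels without overlap, and Hnrnpu and Hnrnpk (1423684_at) overlap.

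No probe set of the Sm and U1/U2 proteins, the Prpf proteins or the Lsm proteins was called in this comparison, 0 of 10, 0 of 10 and 0 of 7. Of all probe sets 12.0% were called, and these groups are small. Their median changes were -0.04, 0.06 and -0.04. Among the Sm and U1/U2 proteins the largest changes were 0.43 for Snrpb2 (1452422_a_at), a U2 protein, at an adjusted p of 0.129, and -0.26 for Snrpb, the Sm protein B, at 0.192. Snrpe, another Sm protein, had 0.41. Prpf4b (1455696_a_at) had 0.35 at an adjusted p of 0.252, and Prpf19 (1460633_at), the core of a complex that keeps the catalytic spliceosome together, had -0.55 at 0.245. Lsm10 had 0.31 at 0.329, and Lsm4, a subunit of the U6 ring, had -0.25 at 0.158. The 18 probe sets of SF3 and U2AF genes had a median of 0.11, with Sf3b1 the single call (5.56%).

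The sign of the change was not the same at all probe sets of every gene. Of 28 genes with several tested probe sets, 13 had changes of a single sign in SOD1 against NTg gastrocnemius, 11 of them above 0 and 2 below, and 15 had both signs. Some of the 15 had changes near 0, such as Hnrnpa1 at -0.01 and 0.06. Genes outside the splicing factors were not counted in this way. Beside the called Srsf1 probe set stood 1434972_x_at at 0.34, 1430982_at at 0.09, 1453722_s_at at 0.08, 1428100_at at -0.13 and 1452430_s_at at -0.38. The other Srsf6 probe sets, 1416720_at and 1416721_s_at, both had -0.18. Hnrnpk had 0.36 at 1460547_a_at and 0.05 at 1454692_x_at. Hnrnpu had 0.47 at 1423051_at (adjusted p = 0.0668), 0.26 at 1450849_at, 0.02 at 1434391_at and -0.03 at 1434390_at. Hnrnpdl had 0.18 at 1424252_at, -0.07 at 1449039_a_at and -0.27 at 1420093_s_at. None of these passed, and differences between probe sets of a gene were not tested. Endings _x_at and _s_at mark probe sets whose probes can match several transcripts. With the mean of a gene's probe sets, 2 of the 56 genes were called, Hnrnpk at 0.34 and Sf3b1 at 0.50, against 6 genes with a called probe set.

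**Figure D2:**
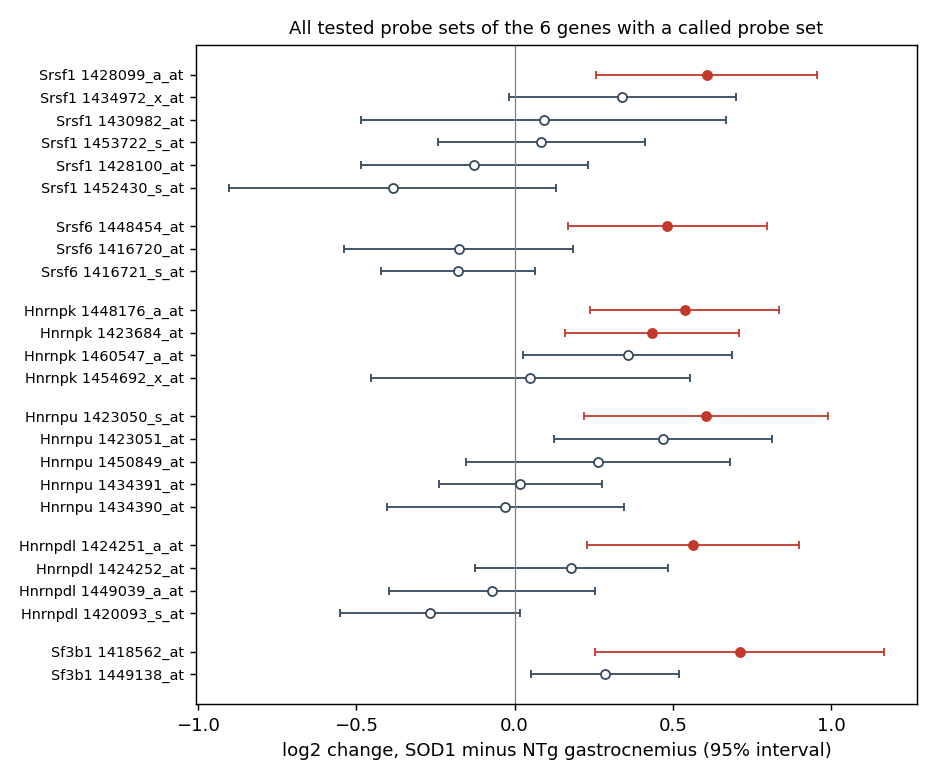
Log2 change in SOD1 minus NTg gastrocnemius (x axis) with its 95% interval, for every tested probe set (rows) of the 6 genes with a call. Red marks the 7 called probe sets, with changes between 0.43 and 0.71, and the others lie between -0.38 and 0.47.

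The count of calls depended on single arrays. Without SOD1 gastrocnemius replicate 4, 0 of the 108 were called. The count was 1 without any one of SOD1 gastrocnemius replicates 2 and 3 and NTg gastrocnemius replicates 1, 3 and 4. Without NTg gastrocnemius replicate 1 that call was Sf3b3 (1415985_at), which is not among the 7. The count was 3 without NTg gastrocnemius replicate 2 and 14 without SOD1 gastrocnemius replicate 1. It was 11 without SOD1 triceps replicate 4, an array that enters through the shared variance and the filter. Leaving out an array changes the test of every probe set, and the calls over all probe sets in such fits are not given here. These counts, here and in the comparisons below, therefore cannot be read as particular to the splicing factors. Among the SOD1 gastrocnemius arrays, the median of the 108 probe sets, each taken minus its mean over all arrays, was -0.063, 0.022, 0.098 and 0.178 in replicates 1 to 4, against -0.052, -0.039, -0.087 and -0.026 in NTg gastrocnemius. SOD1 replicate 1 lay within the NTg range and the other SOD1 arrays above it. Chrna1 had 8.57, 10.23, 10.30 and 10.85 in the same SOD1 arrays, lowest and highest in the same replicates as the splicing factors, against 6.20 to 6.81 in NTg gastrocnemius. This likeness over 4 arrays is a description and was not tested.

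Markers of other states and cell types moved in the same arrays. The summed signal of 8 markers of denervated muscle was 1572 to 5287 in SOD1 gastrocnemius, against 355 to 413 in NTg gastrocnemius, and 4 of 4 tested rose. That of 13 macrophage markers was 1698 to 2515 in SOD1 gastrocnemius, against 927 to 1173 in NTg gastrocnemius, and 7 of 10 tested rose. Of 3 tested satellite cell and myoblast markers 1 rose (Myod1), and of 10 fibroblast markers 0 rose, though all 10 changes were above 0. Splicing factors are made in every cell type, and the part of these cells in the changes was not tested.

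**Figure D3:**
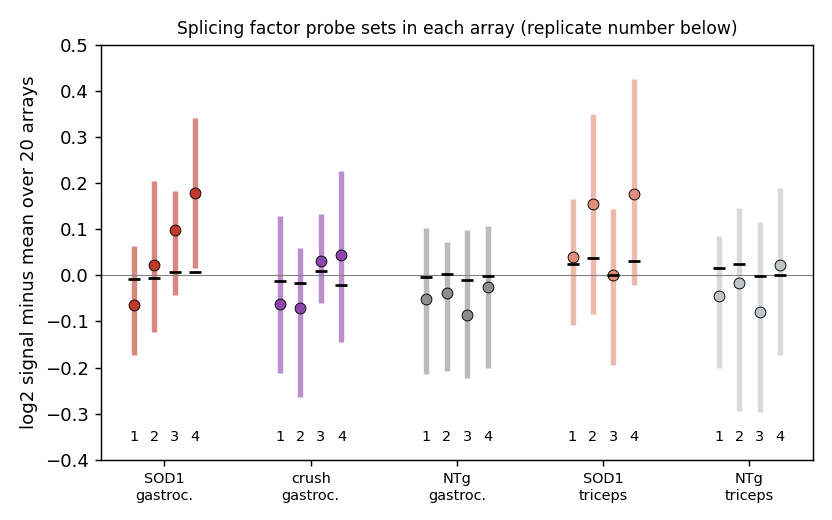
Median (points) and middle 50% (bars) of the 108 splicing factor probe sets in each array, as log2 signal minus each probe set's mean over 20 arrays (y axis), by group and replicate number (x axis), and short lines for the median of all tested probe sets. SOD1 gastrocnemius lies between -0.063 and 0.178 and SOD1 triceps between 0.00058 and 0.175, with replicate 4 highest in both.

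In triceps, 0 of the 108 probe sets passed in SOD1 against NTg, also without any single array, with a background of 0.239% of all probe sets called. Unadjusted p-values under 0.05 were found for 18 (16.7%), against 15.2% of all. Changes were above 0 for 81 of the 108, against 51.8% of all probe sets, with a median of 0.17 (0.15 without SOD1 triceps replicate 4), against 0.01. For 3 (2.78%) the groups did not overlap, with SOD1 above NTg in each, against 6.99% of all and 4.69% with SOD1 above. The array medians of the 108 were 0.040, 0.154, 0.00058 and 0.175 in SOD1 triceps, against -0.045, -0.016, -0.080 and 0.022 in NTg triceps. The ranges overlapped, since SOD1 replicate 3 lay below NTg replicate 4. Markers of denervated muscle summed to 926 to 6226 with a median of 1337 in SOD1 triceps, against 308 to 395 in NTg triceps. Macrophage markers summed to 1173 to 2295 in SOD1 triceps, against 1190 to 1874 in NTg triceps. The median change was -0.64 for muscle fibre genes (2 of 13 above 0), -0.52 for endothelium (0 of 8) and -0.33 for fibroblasts (1 of 10). No gene of these 5 lists was called, and their part in the values of the splicing factors was not tested.

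The lowest adjusted p in triceps was that of Hnrnph2, a G-run binding hnRNP, at 0.211. Its signals were 8.03, 8.59, 7.79 and 8.39 in SOD1 triceps, against 7.74, 7.88, 7.35 and 7.81 in NTg triceps, a change of 0.51 with 1 SOD1 array inside the NTg range. The hnRNPs had a median of 0.22, with 35 of 43 above 0, led by Hnrnpu (1450849_at) at 0.57. SF3 and U2AF genes had 0.13, and U2af1, which reads the AG at the end of an intron, had 0.52. The SR proteins had 0.12, between 0.44 for Srsf1 (1452430_s_at) and -0.37 for Srsf6 (1416720_at). The Sm and U1/U2 proteins had 0.17, between 0.40 for Snrpb2 (1452422_a_at) and -0.29 for Snrpc, a U1 protein. The Prpf proteins had 0.11, between 0.34 for Prpf19 (1460633_at) and -0.18 for Prpf6 (1454789_x_at), and the Lsm proteins 0.10, between 0.19 for Lsm10 and -0.07 for Lsm14b. In hnRNPs and SF3 genes the lowest changes were -0.16 for Hnrnpab (1448144_at) and -0.18 for Sf3b4 (1436784_x_at).

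The 7 probe sets called in gastrocnemius had changes of their own in triceps: 0.06 for Sf3b1, 0.03 for Srsf1, 0.37 for Srsf6, 0.45 for Hnrnpu, 0.00 for Hnrnpdl, and 0.35 (1448176_a_at) and 0.27 (1423684_at) for Hnrnpk. Both muscles may come from the same mice, so these are not independent. The 7 were chosen by their gastrocnemius values, so a smaller change in triceps does not by itself show a difference between muscles. The difference between the muscles was tested as the SOD1 change in gastrocnemius minus that in triceps. In all, 0 of 7523 probe sets were called (0.00%) and 710 (9.44%) had an unadjusted p under 0.05; among the splicing factors that count was 6 (5.56%). The lowest adjusted p among the splicing factors was 0.490. The 95% intervals that follow are not adjusted for the number of probe sets, and the probe sets were picked for large differences. Sf3b1 (1418562_at) differed by 0.65 with a 95% interval of 0.01 to 1.30, Srsf1 (1428099_a_at) by 0.57 (0.08 to 1.07) and Hnrnpdl (1424251_a_at) by 0.56 (0.09 to 1.03). In the other direction lay Prpf19 (1460633_at) at -0.90 (-1.81 to 0.02), Srsf1 (1452430_s_at) at -0.83 (-1.56 to -0.10), U2af1 at -0.71 (-1.32 to -0.10) and Hnrnpdl (1449039_a_at) at -0.51 (-0.97 to -0.05). Within the remaining role groups the differences ran between 0.22 for Snrpe and -0.29 for Lsm4, with 0.21 for Lsm3 and Prpf40b and -0.23 for Snrpb2 (1426613_a_at). The median over the 108 was -0.01, and 52 were above 0, against 48.5% of all.

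**Figure D4:**
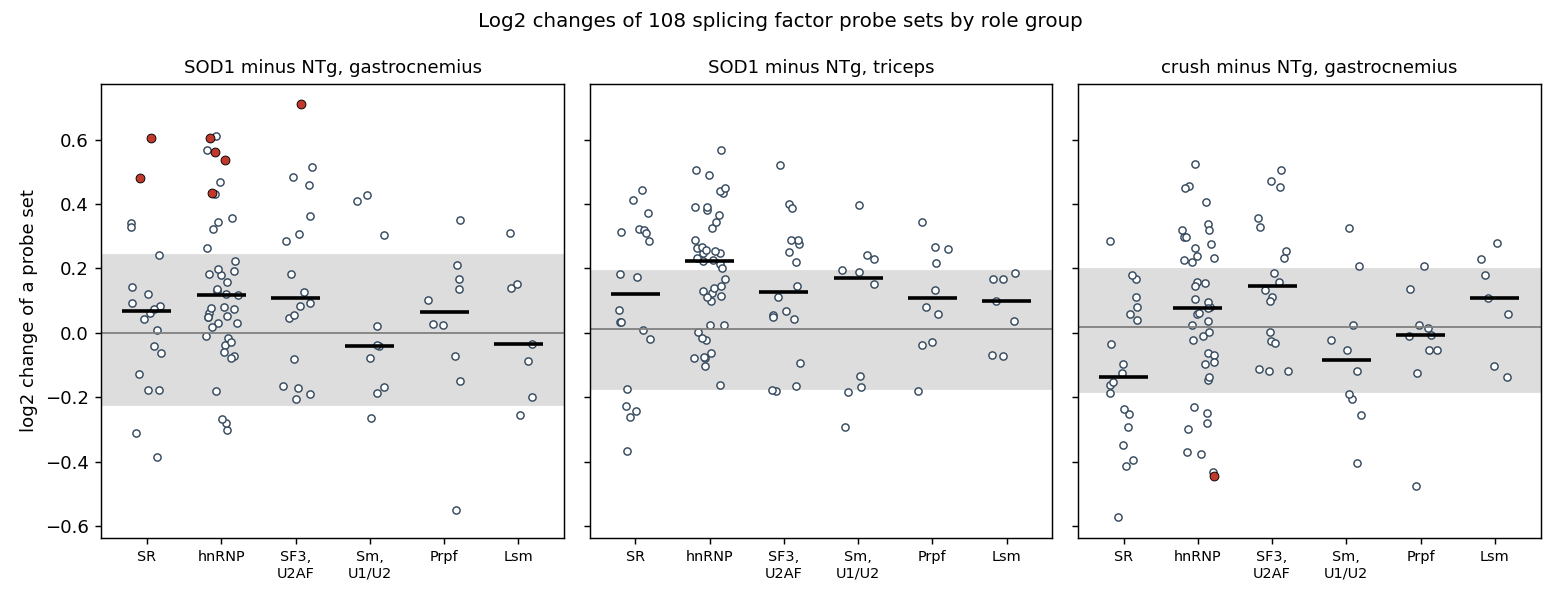
Log2 change (y axis) of each of the 108 probe sets by role group (x axis) for SOD1 minus NTg gastrocnemius, SOD1 minus NTg triceps and crush minus NTg gastrocnemius, with red points for calls, black bars for the role group's median, and a grey band and line for the middle 50% and the median of all 7523 probe sets. The 7 calls of the first panel lie in the SR, hnRNP and SF3 groups, which hold 20, 43 and 18 of the 108 probe sets. The triceps panel has none.

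After nerve crush, 1 of the 108 probe sets fell and 0 rose against NTg gastrocnemius (0.926%), with 4.13% of all probe sets called, 1.08% higher and 3.06% lower. It belongs to Hnrnpa2b1, an abundant hnRNP whose human counterpart is mutated in a disease of muscle, bone and motor neurons. Probe set 1433829_a_at had 8.13, 8.12, 8.27 and 8.27 in crush gastrocnemius, against 8.47, 8.66, 8.76 and 8.68 in NTg gastrocnemius. No crush array reached the NTg range, and the change was -0.44 (SE 0.12; adjusted p = 0.0365). The other probe sets of Hnrnpa2b1 had -0.43 (1434047_x_at), -0.37 (1433830_at) and 0.16 (1420365_a_at), none of which passed. The call was lost without any one of crush replicates 1, 2 and 3 or NTg gastrocnemius replicates 2, 3 and 4, and without crush replicate 4 the count was 3. It was 2 without SOD1 triceps replicate 4 or NTg triceps replicate 3.

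An unadjusted p under 0.05 was found for 16 of the 108 probe sets, against 20.7% of all. For 16 of the 108 (14.8%) the crush and NTg arrays did not overlap, 12 above and 4 below, against 16.4% of all probe sets and 6.94% with crush above. Changes above 0 numbered 59 (54.6%), against 52.7% of all, and the median was 0.03, against 0.02 for all. The SR proteins had a median of -0.14 with 13 of 20 below 0, and the SF3 and U2AF genes a median of 0.15 with 13 of 18 above 0. Srsf3, the smallest SR protein, had -0.57 at 1454993_a_at with an adjusted p of 0.297, and Srsf6 (1448454_at) had 0.29 at 0.290. Sf3b3, a large SF3b scaffold protein, had 0.51 at 0.0974, and Sf3a2 (1450576_a_at) had -0.12. Snrpb2 (1426613_a_at) had -0.40 at 0.105 and Snrpe 0.33 at 0.284. Lsm3, of the U6 ring, had 0.28 at 0.124 with no overlap, and Lsm14b had -0.14. Prpf6, a bridge of the tri-snRNP, had 0.21 (1424036_at) and Prpf19 -0.47 (1460633_at), and neither passed. Markers of denervated muscle summed to 521 to 7129 with a median of 612 in crush gastrocnemius, against 355 to 413 in NTg gastrocnemius. Of these markers 4 of 4 tested had changes above 0, with a median of 1.54 and no call. Crush replicate 4 weighs heavily in these changes. Chrna1 and Myog read 11.34 and 10.14 in it, against highest values of 7.40 and 7.09 in the other crush arrays. Macrophage markers summed to 1061 to 1620 in crush gastrocnemius, against 927 to 1173 in NTg gastrocnemius, and Mbp, a myelin protein of Schwann cells, fell by 2.35 (adjusted p = 0.0163); their part in these values was not tested.

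SOD1 and crush gastrocnemius were set against each other directly. Among all 7523 probe sets 0 were called (0.00%), with 940 (12.5%) at an unadjusted p under 0.05, and among the splicing factors 10 (9.26%) were. The arrays did not overlap for 7 of the 108 (6.48%), 4 with SOD1 above and 3 below, against 5.48% of all and 2.87% with SOD1 above. Hnrnpa2b1 (1433829_a_at) had 8.71, 8.68, 8.79 and 8.86 in SOD1 gastrocnemius, all above the crush arrays given before. The difference was 0.57 with a 95% interval of 0.32 to 0.81 and an adjusted p of 0.117. Without crush replicate 4, 2 probe sets were called and this one had the lowest adjusted p of its fits, 0.00988.

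Changes between SOD1 and crush were above 0 for 70 of the 108 (64.8%, against 49.8% of all), with a median of 0.08, and for 17 of the 20 SR probe sets, with a median of 0.18. Srsf3 (1454993_a_at) had 5.36, 6.30, 6.89 and 6.67 in SOD1 gastrocnemius, against 5.69, 5.04, 6.05 and 5.57 in crush gastrocnemius, a difference of 0.72 (0.08 to 1.35) with overlap and an adjusted p of 0.349. Its other tested probe sets, named after their values were seen, had 0.48 (1416150_a_at) and 0.50 (1434512_x_at). Srsf1 (1452430_s_at) lay at -0.46. In the other groups the largest differences were 0.41 for Sf3b6 (1436681_x_at) and -0.32 for Sf3b2 (1456040_at), 0.36 for Snrpb2 (1426613_a_at) and -0.19 for Snrpd3 (1449629_s_at), 0.33 for Prpf4b (1455696_a_at) and -0.29 for Prpf38b, 0.20 for Lsm10 and -0.27 for Lsm12, and -0.39 for Hnrnpf (1437099_x_at). None of them passed. Both groups share the NTg arrays in their own comparisons, and the 7 probe sets called in SOD1 gastrocnemius had changes after crush of 0.45 for Sf3b1, 0.17 for Srsf1, 0.29 for Srsf6, 0.32 for Hnrnpu, 0.22 for Hnrnpdl, and 0.45 (1448176_a_at) and 0.34 (1423684_at) for Hnrnpk. These 7 were chosen by their SOD1 gastrocnemius values.

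Between the muscles of NTg mice, 3 of the 108 probe sets were higher in gastrocnemius than in triceps and 0 lower (2.78%), against 1.71% of all called, 1.52% higher and 0.199% lower. Srsf2, also known as SC35 and a marker of nuclear speckles, had 6.43, 6.56, 6.82 and 6.62 at 1452439_s_at in NTg gastrocnemius, against 6.07, 5.12, 5.73 and 5.59 in NTg triceps. The groups did not overlap, and the change was 0.98 (SE 0.18; adjusted p = 0.00813), or 1.97-fold. In the SOD1 arrays the same probe set had 6.64, 6.63, 6.39 and 6.81 in gastrocnemius, against 6.04, 5.52, 6.12 and 6.08 in triceps, again without overlap. The other Srsf2 probe set, 1427504_s_at, averaged 9.01 ± 0.10 in NTg gastrocnemius and 8.90 ± 0.09 in NTg triceps (SD, n = 4 each). Its change of 0.10 was not called. The call at 1452439_s_at was kept in 20 of 20 fits that left out an array. That probe set was dim in NTg triceps. Its signals of 5.12, 5.59 and 5.73 there lay below 5.88, the mean signal under which probe sets were left out. The stricter of the other filters left it out, so the call was not tested under that setting.

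U2af1 had 7.73, 7.60, 7.78 and 7.57 in NTg gastrocnemius, against 7.24, 6.77, 6.53 and 6.34 in NTg triceps, a change of 0.95 (SE 0.21; adjusted p = 0.0239) with no overlap. Sf3b2, the SF3b subunit that touches RNA near the branch site, had 7.32, 7.12, 7.54 and 7.37 at 1456040_at in NTg gastrocnemius, against 7.04, 6.39, 6.28 and 6.95 in NTg triceps. The change was 0.68 (SE 0.16; adjusted p = 0.0320), again with no overlap, while the other Sf3b2 probe sets had 0.30 (1456352_a_at), -0.05 (1438637_x_at) and -0.32 (1433461_at). NTg triceps replicate 1, the array that correlated most with gastrocnemius, was the highest NTg triceps array for all 3 called probe sets. Without it the count was 7, and Srsf2, U2af1 and Sf3b2 had changes of 1.13, 1.12 and 0.80. The count was 2 without NTg triceps replicate 4, the array with the second tissue in its description, 5 without crush replicate 4 and 1 without any one of NTg gastrocnemius replicates 1, 3 and 4 or NTg triceps replicates 2 and 3.

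**Figure D5:**
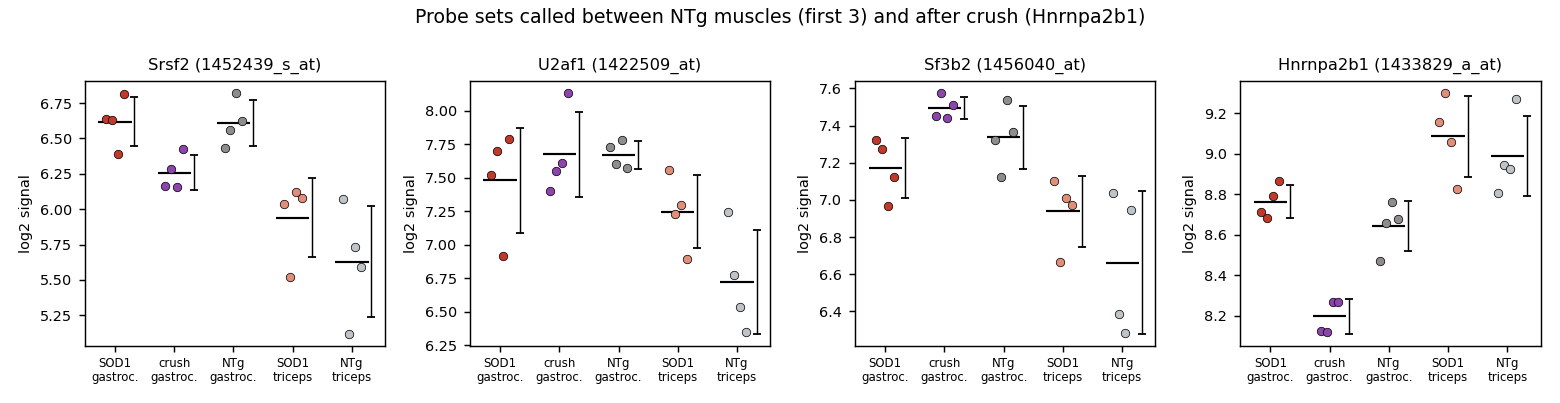
Log2 signal (y axis) by group (x axis) in each array of the 3 probe sets called between NTg gastrocnemius and NTg triceps (Srsf2, U2af1, Sf3b2) and of the Hnrnpa2b1 probe set called after crush, with means and SD (n = 4). Srsf2 lies between 6.43 and 6.82 in NTg gastrocnemius and between 5.12 and 6.07 in NTg triceps.

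The largest difference between NTg muscles was that of Prpf19 (1460633_at), 1.18 (SE 0.31), with an adjusted p of 0.0606. It was called in 3 of 9 other settings: the replicate block, the mouse as a random block and array weights. The mouse block assumed that same-numbered arrays of both muscles came from the same mouse, which no label states. The Prpf19 arrays read 7.66, 7.90, 8.11 and 7.47 in gastrocnemius, against 7.29, 6.45, 6.90 and 5.77 in triceps, without overlap. The other probe sets of Prpf19 had 0.11 (1419839_x_at) and 0.06 (1449635_at). Srsf1 (1452430_s_at) had 0.97 at an adjusted p of 0.0508, and was called under 6 of 8 other settings, the mouse as a random block among them. The arrays of both muscles did not overlap for 13 of the 108 (12.0%), 8 higher in gastrocnemius and 5 lower, against 10.3% of all and 4.61% higher. Changes were above 0 for 46 of the 108 (42.6%), against 45.1% of all, and 16 (14.8%) had an unadjusted p under 0.05, against 14.3% of all. Hnrnpu (1450849_at) had 0.50 and Hnrnpf (1437099_x_at), which binds G-runs, -0.64. The Sm and U1/U2 proteins ranged between 0.16 for Snrpd3 (1422884_at) and -0.31 for Snrpe, and the Lsm proteins between 0.16 for Lsm3 and -0.26 for Lsm12. The lowest Prpf value was -0.18 for Prpf4b (1455696_a_at). Of the 13 muscle fibre genes 3 were higher in NTg gastrocnemius, the slow-fibre genes Myh7, Tnnt1 and Tnni1, and so were Mbp, by 2.60 (adjusted p = 0.0150), and 1 of 7 smooth muscle genes. Of the macrophage genes 1 of 10 was lower (median change -0.49, 2 of 10 above 0), and of the fibroblast genes 1 of 10 (median -0.36, 3 of 10 above 0). Their part in these values was not tested.

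Across the 5 groups the splicing factors had a narrow range. The range of a probe set's group means had a median of 0.40, against 0.47 for all tested probe sets, and the SD within groups had a median of 0.23, against 0.25. A range over 1 was found for 2 of the 108 (1.85%), Prpf19 (1460633_at) at 1.18 and Srsf1 (1452430_s_at) at 1.05, against 8.95% of all probe sets. These ranges include the spread of the arrays and were not tested.

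Other genes of splicing, taken from 5 lists, were read from the same fit: other spliceosome and U snRNP proteins, the SMN complex that loads Sm rings, exon junction and SR-related proteins, kinases of SR proteins, and other splicing regulators. Of 118 such genes measured here, 97 were tested. Each was read at its tested probe set with the highest mean. Their shares are therefore of genes, unlike the shares of probe sets given for the splicing factors and for the whole table. Unlike those of the splicing factors, the calls of these 97 genes were not checked in other settings or without single arrays. In SOD1 against NTg gastrocnemius 6 rose and 5 fell (11.3%), against 12.0% of all probe sets. Changes were above 0 for 60 of the 97 (61.9%), with a median of 0.11, against 49.8% of all probe sets. In SOD1 against crush gastrocnemius 58 (59.8%) were above 0, with a median of 0.08. Luc7l, a U1-associated protein, rose by 0.63 (adjusted p = 0.0263), Ewsr1, an RNA-binding protein, by 0.62 (0.0353), Ik, of the precatalytic spliceosome, by 0.62 (0.0367), and Clk2, a kinase of SR proteins, by 0.58 (0.0294). Rbm5 rose by 0.44 and Khdrbs1, known as Sam68, by 0.39. Mbnl1, the muscleblind protein that is held by expanded repeats in myotonic dystrophy, fell by 0.73 (adjusted p = 0.0414), and Dyrk1a, another kinase, by 0.63 (0.0449). Gemin7 of the SMN complex fell by 0.54, Rbfox1, a regulator of muscle exons, by 0.47 (0.0150) and Bclaf1 by 0.44. Tardbp (0.15 at 1455655_a_at), Clk1 (0.25), Ptbp1 (0.28) and Srpk3 (-0.08), a muscle kinase of SR proteins, did not pass. Probe sets of Tardbp differed in direction: 1423723_s_at averaged 6.83 in SOD1 gastrocnemius and 6.55 in NTg gastrocnemius, and 1434419_s_at 6.21 in SOD1 gastrocnemius and 6.52 in NTg gastrocnemius.

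Mbnl1 had 11.21, 10.61, 10.56 and 10.38 in SOD1 gastrocnemius, against 11.27, 11.41, 11.56 and 11.42 in NTg gastrocnemius, without overlap. In crush gastrocnemius Mbnl1 had 11.10, 10.94, 10.94 and 10.35, also below every NTg gastrocnemius array, and it was not called there. Rbfox1 had 9.32, 9.24, 8.98 and 9.03 in SOD1 gastrocnemius and 8.86, 8.94, 8.94 and 8.88 in crush gastrocnemius, all below the 9.45, 9.61, 9.76 and 9.63 in NTg gastrocnemius. Its change after crush was -0.71 (adjusted p = 0.00234). After crush 1 of the 97 genes rose, Luc7l2 by 0.49 (adjusted p = 0.0360), and 4 fell (5.15%, against 4.13% of all probe sets): besides Rbfox1, Arglu1 by 0.68, Celf2 by 0.51 and Pcbp2 by 0.35. In triceps 0 of the 97 were called, against 0.239% of all, 74 (76.3%) had a change above 0, against 51.8%, and the median was 0.15, against 0.01. Rbfox1 there had 0.16 and Mbnl1 -0.33.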

How the data were processed

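Total RNA of mouse muscle was extracted with Trizol, purified on columns and hybridised to 1-colour Affymetrix arrays, per the labels' protocols. The authors deposited 1 table of log2 signals of 10748 probe sets in 20 arrays, and MAS5 is the tool named, per the submitters' processing notes. The values ran between -3.66 and 13.3, and no source used here names a further step. MAS5 treats each array by itself, so differences in distribution between arrays can stay in the values. Of the probe sets 9874 had 1 symbol in the platform annotation, 387 several and 487 none.

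The dimmest 30% of probe sets (mean log2 signal of the 20 arrays under 5.88) were left out, which left 7523. limma 3.58.1 in R 4.3.3 fitted 5 group means to all 20 arrays with 15 residual degrees of freedom, with a trended variance prior and Benjamini-Hochberg adjustment over the 7523 in each comparison, and calls were made at an adjusted p under 0.05. The fit was checked on simulated data. SE is the moderated standard error, and p-values measure the spread between arrays that the labels call biological replicates. Probe sets were named where called, where they had the largest rise or fall of a role group without a call or the highest mean of a role group, or where they belong to a gene called in SOD1 gastrocnemius. Hnrnph2, Hnrnpr, 2 probe sets of Srsf3 and the further probe sets of Hnrnpa2b1, Srsf2, Sf3b2 and Prpf19 were named after their values were seen. Other splicing genes were to be named for the 6 largest calls of a comparison and for a short list of regulators, and the remaining called genes were added after their values were seen. The members, role groups and lists were chosen with earlier results of these data known. Promoters came from RefSeq. Figures were drawn with matplotlib 3.10.9. Alternatives were quantile normalization, 75th percentile scaling, other filters, fewer arrays, replicate and mouse blocks, array weights, a robust prior, gene means and leaving out each array. The mouse block took same-numbered arrays of both muscles of a genotype as the same mouse, an assumption that no label backs.

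In SOD1 against NTg gastrocnemius, 0 of the tested genes were called for muscle fibre (13 tested), fibroblasts (10), Schwann cells (3), endothelium (8), adipocytes (3), lymphocytes and granulocytes (1) and cycling cells (1), and 1 of 7 smooth muscle genes fell. No blood gene was tested. After crush, 0 were called in each of these lists other than Schwann cells, where 1 of 3 fell, and 0 of 10 macrophage, 0 of 4 denervation and 0 of 3 satellite cell genes. Probe sets of mouse Sod1 do not check the human transgene.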

Additional observations from a re-analysis of the deposited data

Results flagged for a closer look

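Dixon's test was run on 270 groups of 4 arrays, 265 of the 53 named probe sets and 5 of the array medians of the splicing factors. In 12 of them (4.44%), all of probe sets, 1 array stood apart from the other 3 by more than Dixon's 95% limit. Chance gives about 1 in 20 groups. In SOD1 gastrocnemius, Srsf1 (1453722_s_at) stood at 7.0 in replicate 1, with the nearest array at 7.64. Lsm4 stood at 7.64 in replicate 2, nearest 7.99, Snrpb at 8.91 in replicate 1, nearest 8.68, and Prpf6 (1454789_x_at) at 6.38 in replicate 4, nearest 5.83. In NTg gastrocnemius replicate 3, Sf3b4 (1436784_x_at) stood at 7.05, nearest 6.65, and Srsf6 (1416720_at) at 7.40, nearest 7.86. In SOD1 triceps, Srsf2 (1452439_s_at) stood at 5.52 in replicate 2, nearest 6.04, and Prpf40b at 6.84 in replicate 3, nearest 6.32. In NTg triceps replicate 3, Hnrnpab (1448144_at) stood at 6.82, nearest 7.22, and Prpf6 (1424036_at) at 7.78, nearest 7.50. In NTg triceps replicate 4, whose description names gastrocnemius, Hnrnpu (1423050_s_at) stood at 8.43, nearest 8.03, and Sf3b3 at 7.09, nearest 6.65.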

How the results depend on the processing

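The counts of called splicing factors moved with the fit. For SOD1 against NTg gastrocnemius the count of 7 became 14 with the compared arrays alone, 12 with the replicate block and 24 with array weights (19 higher, 5 lower), and 2 genes against 6 with the mean of a gene's probe sets. For crush against NTg gastrocnemius the count of 1 became 2 with quantile normalization, with the filter at 60% and with the replicate block (1 higher, 1 lower), 13 with array weights (6 higher, 7 lower), and 0 genes against 1 with gene means. For SOD1 against crush gastrocnemius the count of 0 became 12 with array weights. For NTg gastrocnemius against NTg triceps the count of 3 became 8 with the mouse as a random block (7 higher, 1 lower), 10 with array weights (9 higher, 1 lower) and 4 with the replicate block. The calls over all probe sets under these settings are not given here, so the counts cannot be read as particular to the splicing factors. The cause was not tested. Leaving out 1 array at a time gave 0 to 14, 0 to 3, 0 to 2 and 1 to 7 calls in these comparisons, and 0 throughout in triceps and in the difference between muscles. The call of Sf3b2 (1456040_at) was lost with the compared arrays alone (adjusted p = 0.0812). The sign of Hnrnpu (1434391_at) turned with quantile normalization (-0.025), 75th percentile scaling (-0.013) and array weights (-0.0036), and that of Hnrnpk (1454692_x_at) with array weights (-0.010). Without single arrays, changes crossed 0 for Hnrnpk (1454692_x_at; -0.10 to 0.19), Hnrnpu (1434391_at; -0.033 to 0.064), Hnrnpu (1434390_at; -0.11 to 0.083), Srsf1 (1430982_at; -0.077 to 0.20), and Lsm14b in triceps (-0.12 to 0.0040) and after crush (-0.22 to 0.039); none of these was called. Deviations of same-numbered arrays had r of 0.24, 0.13, 0.21 and -0.09 between NTg gastrocnemius and NTg triceps, 0.57, -0.10, -0.04 and 0.62 between SOD1 gastrocnemius and SOD1 triceps, and -0.17 to 0.03 between SOD1 and NTg gastrocnemius. As not every pair was over 0.1, the numbers were not taken as pairs in the main fit. With 4 arrays a group and signals near background for dim probe sets, small changes were not detectable.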
